A study of Mus musculus with 62 samples.

Results

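The dystrophin complex and membrane repair genes described here are Dmd, Utrn, Dag1, Sgca, Sgcb, Sgcd, Sntb1, Dysf and Cav3. Their regulatory regions were taken to be every peak that the authors' annotation assigned to one of these gene names, that is, every peak whose nearest annotated transcription start belonged to the gene. This assignment rests on distance and names no target of a region. The 9 genes were among 19220 with at least 1 peak, and they held 765 of 596282 peaks, of which 405 were H3K27ac peaks and 360 were H3K4me2 peaks. H3K27ac (acetylation of lysine 27 of histone H3) marks active enhancers and promoters, and H3K4me2 (dimethylation of lysine 4) marks enhancers and promoters more broadly. The peaks came from 16 lists, 1 per mark for each of 8 groups of mouse skeletal muscle with 2 libraries each. The labels give the strain C57BL/6 for all groups. The study's methods describe males, with the substrain C57BL/6J and a young adult age stated for the purchased mice and no age for the transgenic mice and their littermates. EDL (extensor digitorum longus), Quad (quadriceps femoris), Sol (soleus) and Dia (diaphragm) came from sedentary wild type mice. Sed was quadriceps of sedentary wild type mice and Ex quadriceps of wild type mice after weeks of voluntary wheel running, harvested within hours of the last bout. Wt and mTg were quadriceps of sedentary littermates, wild type or carrying the PGC1a Tg(+) transgene, which overexpresses the coactivator gene Pgc1a in skeletal muscle from a muscle creatine kinase promoter. Each quadriceps sample was 1 muscle of 1 animal, whereas EDL, Sol and Dia samples pooled muscles of several animals. A further 4 lists held H3K27ac regions selected as higher (Hyper) or lower (Hypo) in Ex than in Sed, and in mTg than in Wt.

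Dystrophin, encoded by Dmd, ties the actin cytoskeleton of the muscle fiber to dystroglycan, the laminin receptor made from Dag1. The sarcoglycans (Sgca, Sgcb, Sgcd) form a subcomplex in the same membrane, and the syntrophin encoded by Sntb1 anchors signaling proteins to it. Utrophin, from Utrn, is a close relative of dystrophin that is concentrated at the neuromuscular junction of adult fibers. Dysferlin (Dysf) is needed to reseal a torn sarcolemma, and caveolin-3 (Cav3) is the muscle caveolin that shapes membrane invaginations and binds members of both systems. Loss of several of these proteins, dystrophin and dysferlin among them, underlies muscular dystrophies.

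Depth, in M (mega) tags, was 11.7 to 24.2 in the 16 H3K27ac libraries, 6.41 to 22.7 in the 16 H3K4me2 libraries and 7.72 to 22.9 in 11 inputs. Muscle fiber genes (Acta1, Ckm, Mb, Ttn, Tnnt3, Tnnt1) carried H3K27ac peaks in every group (4 to 6 of 6 genes), as did markers of endothelium (4 of 4), immune cells (3 to 4 of 4) and fibroblasts (3 of 3), so the tissue held more than muscle fibers. In such bulk tissue a change in the share of cells of one type and a change of the mark within cells cannot be told apart. The H3K4me2 libraries labelled Wt and mTg differed from their H3K27ac counterparts at the regions with higher H3K27ac in mTg: 63.8% of these 1828 regions held an H3K4me2 peak in the list labelled Wt and 20.8% in the list labelled mTg, against 41.6% in Quad. At the 844 regions with lower H3K27ac in mTg these shares were 30.9%, 25.4% and 53.0%, and the lists held 46944 (Wt) and 27527 (mTg) H3K4me2 peaks in all. These libraries are therefore named by their labels, and no direction is drawn from them.

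Reference sequence (RefSeq, GRCm38.p6) is shown at the promoters and accessible sites to which the later results return. Of the 9 genes, 8 had a promoter entry, with 11 starts between them. Capitals mark the muscle E-box CAGCTG, bound by myogenic factors, the MEF2 site (by name), the estrogen-related receptor site AAGGTCA and the AP-1-like pattern TGANTCA. In TGANTCA, N is any base, so the pattern is looser than the AP-1 consensus. Each was searched on both strands, with no overlap between them in the sequences shown. The 250 bases before a start held CAGCTG at 13.0%, a MEF2 site at 2.92%, AAGGTCA at 4.08% and TGANTCA at 6.75% of 32851 starts. Of the 11 starts of these genes, 1 held CAGCTG, 1 a MEF2 site, 2 AAGGTCA and 1 TGANTCA. All of these matches fall in the Dmd, Cav3 and Dysf windows shown, and the starts not shown held none. These are the 250 bases before the muscle start of Dmd (chrX:82948620-82948869, plus strand), which lay in a region lower in Ex; before Cav3 (chr6:112459255-112459504, plus strand), with both CAGCTG and AAGGTCA; before the first start of Dysf (chr6:84008348-84008597, plus strand), with AAGGTCA; and before Sgca (chr11:94976328-94976577, minus strand), whose start peak had the highest H3K27ac level per kb among the 9 genes in each of the 4 muscles.
Dmd promoter: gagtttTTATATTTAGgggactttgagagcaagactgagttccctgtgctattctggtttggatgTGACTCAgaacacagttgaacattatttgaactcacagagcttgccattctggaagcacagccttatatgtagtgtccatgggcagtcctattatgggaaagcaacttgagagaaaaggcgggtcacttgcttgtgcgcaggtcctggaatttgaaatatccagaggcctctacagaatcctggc
Cav3 promoter: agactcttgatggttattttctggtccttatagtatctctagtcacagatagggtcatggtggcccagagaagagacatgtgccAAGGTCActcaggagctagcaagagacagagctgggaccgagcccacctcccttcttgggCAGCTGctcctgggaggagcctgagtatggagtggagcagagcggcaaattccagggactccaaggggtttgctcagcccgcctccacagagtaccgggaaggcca
Dysf promoter: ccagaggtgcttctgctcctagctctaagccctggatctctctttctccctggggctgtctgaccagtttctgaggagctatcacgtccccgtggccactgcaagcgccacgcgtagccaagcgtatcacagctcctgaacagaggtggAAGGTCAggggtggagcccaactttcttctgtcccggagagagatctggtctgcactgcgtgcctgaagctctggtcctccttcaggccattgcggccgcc
Sgca promoter: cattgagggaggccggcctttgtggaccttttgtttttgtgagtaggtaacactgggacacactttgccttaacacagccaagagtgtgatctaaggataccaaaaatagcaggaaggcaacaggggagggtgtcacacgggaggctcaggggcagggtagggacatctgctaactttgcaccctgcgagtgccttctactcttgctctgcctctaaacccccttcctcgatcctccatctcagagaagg

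Accessible sites came from the Quad ATAC-seq list (transposase-accessible chromatin, 195 bases per peak, 3 control libraries pooled by the authors) and are given on the plus strand. Of 44911 such peaks, 21.1% held CAGCTG, 4.69% a MEF2 site, 4.98% AAGGTCA and 10.2% TGANTCA. Of the 8 sites searched at these genes, 2 held CAGCTG, 1 a MEF2 site, 1 AAGGTCA and 2 TGANTCA. The site at the muscle start of Dmd, with TGANTCA, and a further upstream Utrn site, with no match, are not shown. The sites shown overlapped regions that differed between groups, apart from the first, which lay in the strongest Utrn region. They are Utrn upstream (chr10:12868233-12868427), Utrn intron 1 (chr10:12788029-12788223), Sgcd intron 2 (chr11:47250476-47250670), Sntb1 intron 2 (chr15:55791385-55791579), Sntb1 intron 3 (chr15:55749223-55749417) and Dmd intron 1 (chrX:82966775-82966969).
Utrn upstream: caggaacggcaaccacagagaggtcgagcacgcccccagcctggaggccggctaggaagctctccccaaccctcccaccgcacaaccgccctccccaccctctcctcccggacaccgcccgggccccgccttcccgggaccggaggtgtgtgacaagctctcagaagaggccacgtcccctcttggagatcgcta
Utrn intron 1: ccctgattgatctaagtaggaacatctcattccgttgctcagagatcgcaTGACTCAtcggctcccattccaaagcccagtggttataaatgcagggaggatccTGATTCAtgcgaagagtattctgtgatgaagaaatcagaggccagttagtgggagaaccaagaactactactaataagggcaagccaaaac
Sgcd intron 2: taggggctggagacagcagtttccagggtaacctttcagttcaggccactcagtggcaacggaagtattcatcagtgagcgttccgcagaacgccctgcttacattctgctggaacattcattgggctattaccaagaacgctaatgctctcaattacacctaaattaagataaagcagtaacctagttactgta
Sntb1 intron 2: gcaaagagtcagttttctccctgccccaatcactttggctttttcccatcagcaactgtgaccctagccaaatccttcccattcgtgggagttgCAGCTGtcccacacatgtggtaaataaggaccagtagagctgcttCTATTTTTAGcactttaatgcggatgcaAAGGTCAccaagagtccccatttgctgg
Sntb1 intron 3: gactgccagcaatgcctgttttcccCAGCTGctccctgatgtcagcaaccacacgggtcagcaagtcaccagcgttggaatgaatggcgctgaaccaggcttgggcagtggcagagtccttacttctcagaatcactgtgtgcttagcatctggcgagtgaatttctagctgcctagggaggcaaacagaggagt
Dmd intron 1: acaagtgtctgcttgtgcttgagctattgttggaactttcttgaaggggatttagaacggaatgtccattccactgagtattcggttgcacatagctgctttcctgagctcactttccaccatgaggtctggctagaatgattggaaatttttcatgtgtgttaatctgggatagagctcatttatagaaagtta
The Utrn intron 1 site held TGANTCA at 2 positions, as TGACTCA and as TGATTCA. The Sntb1 intron 2 site held CAGCTG, a MEF2 site and AAGGTCA, and the Sntb1 intron 3 site held CAGCTG. The upstream Utrn site, the Sgcd site and the Dmd intron site held none of the 4 motifs. A match describes the letters only.

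All 9 genes carried H3K27ac peaks in 7 of the 8 lists. The exception was Sgcb, which had 1 peak in each list but mTg, where it had 0. Peaks of the 9 genes numbered 62 in Quad, 55 in EDL, 50 in Sol and 37 in Dia for H3K27ac, and 57, 55, 40 and 39 for H3K4me2. The quadriceps of the other experiments held 46 H3K27ac peaks in Sed, 40 in Ex, 67 in Wt and 48 in mTg. The long genes held most of them: across the 8 H3K27ac lists Utrn had 88 peaks, Dysf 82, Dmd 64, Dag1 57, Sntb1 40 and Sgcd 38, whereas the short genes Cav3, Sgca and Sgcb had 17, 12 and 7. H3K27ac peaks inside genes made up 88.0% to 91.9% of the members' peaks per list, against 55.3% to 58.3% of each whole list, which has many genes shorter than Dmd or Utrn. Merged over the 8 lists, the H3K27ac peaks formed 90 regions, of which 14 (15.6%) were called in all 8 lists and 26 (28.9%) in 1 list, against 21.8% and 29.4% of all 63441 merged regions. The H3K4me2 peaks formed 89 regions, with 16 (18.0%) in all 8 lists and 31 (34.8%) in 1 list, against 25.7% and 27.9% of 66355.

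**Figure D1:**
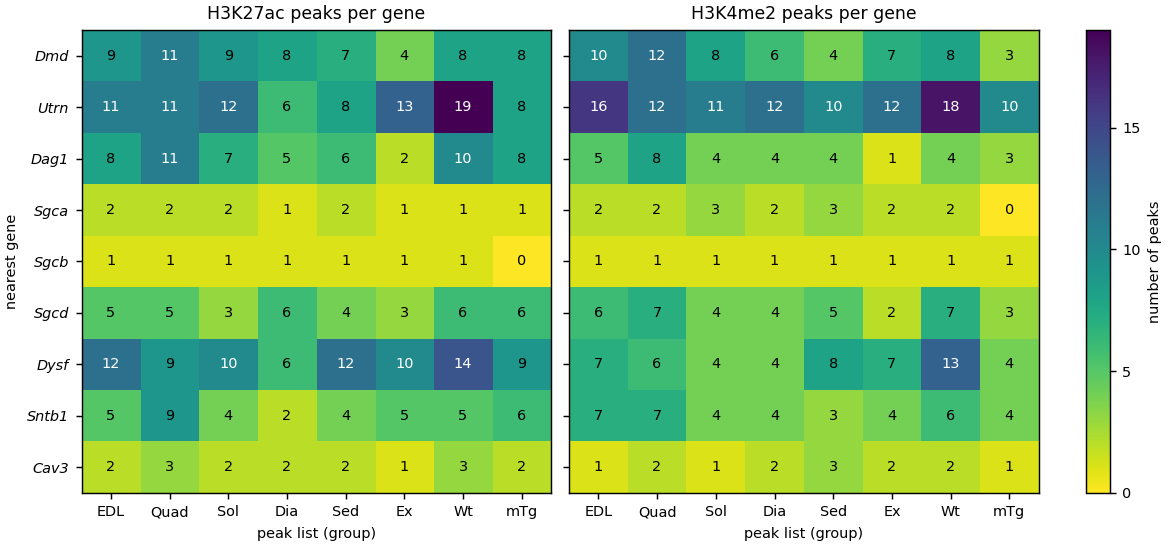
Number of H3K27ac (left) and H3K4me2 (right) peaks whose nearest start belongs to each gene (rows) in each group's peak list (columns), printed in the cells and shaded by number. Utrn ranged from 6 (Dia) to 19 (Wt) H3K27ac peaks, and Sgcb had at most 1.

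Each list was one call over both libraries of a group, and levels were compared between genes per kb of peak width. A level is given below as the log2 level per kb minus the median of its own list (the relative level), once for each of the 2 libraries, and its percentile is the share of peaks in the same list with a lower mean level per kb. Each list was normalized on its own, so levels in different groups are set side by side with no test. The authors' promoter class, which goes by the centre of a peak, held 2 of the members' peaks (Dmd H3K4me2 in Quad and Utrn H3K27ac in Sol), because most peaks at the starts were wide and centred inside the gene. Peaks that covered an annotated start are therefore described.

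The muscle start of Dmd (chromosome X, position 82948870) lay under an H3K27ac peak in 7 lists, all but Ex. The relative levels of the 2 libraries were 0.81 and 0.64 in EDL, 0.87 and 0.56 in Quad, 0.57 and 0.30 in Sol, and 0.55 and 0.52 in Dia. They were 0.44 and 0.28 in Sed, 0.59 and 0.51 in Wt, and 0.32 and 0.24 in mTg. The mean levels stood between the 58.2 and 73.5 percentiles of their lists and EDL was above Sol and Dia with no overlap. H3K4me2 covered this start in Quad and Sed only. The start of the short Dmd transcript near the end of the gene (position 85048295), which is used in many tissues outside muscle fibers, showed the other pattern, with H3K4me2 in all 8 lists and H3K27ac in 6. Its H3K27ac percentiles were 19.9 to 52.5.

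Downstream of the muscle start, the first intron of Dmd held H3K27ac in a row of regions. The merged region that includes the start (chrX:82947327-82961044) was called in all 8 lists. In Ex, its strongest peak (chrX:82954239-82956866) lay downstream of the start, which no Ex peak covered. Regions around 17.0 kb (chrX:82962542-82969872) and 259 kb (chrX:83206322-83210231) were each called in 7 lists, and so was the region around 50.7 kb (chrX:82998420-83001741), which was absent from Sol. The region around 35.1 kb (chrX:82982204-82985855) was called in 6. The strongest Dmd peak of Quad was the one centred at 7.23 kb, with relative levels of 1.23 and 1.13 (83.2 percentile). At the corresponding peak, EDL had 0.79 and 0.87, and Sol 0.75 and 0.72.

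**Figure D2:**
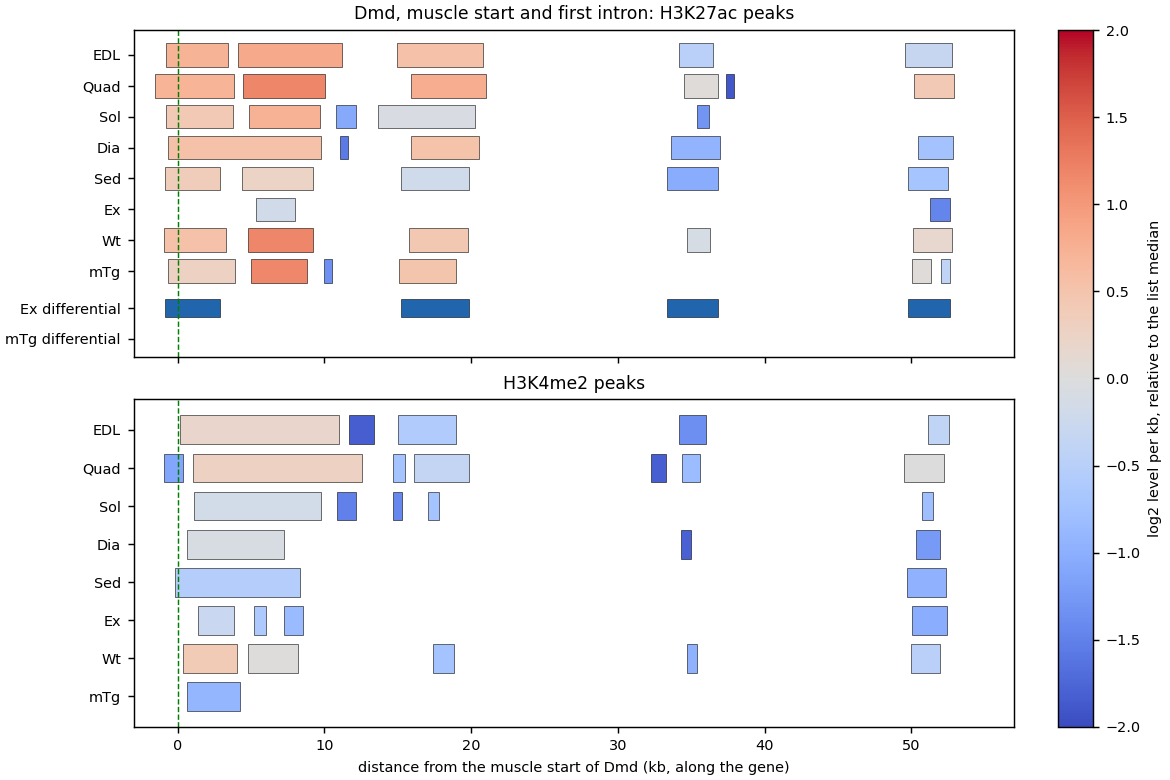
H3K27ac (top) and H3K4me2 (bottom) peaks of each group (rows) along the first part of Dmd, by distance from its muscle start in kb (dashed line), coloured by the mean log2 level per kb relative to the list median. Blue blocks in the bottom rows of the top panel are the 4 regions of the Ex Hypo list, at 1.03, 17.5, 35.1 and 51.2 kb, and the mTg row is empty.

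Utrn showed its strongest marks not at its RefSeq start but upstream of it. The RefSeq start (chromosome 10, position 12861735) was covered by an H3K27ac peak in Sol alone, at the 13.8 percentile, and by H3K4me2 in 0 lists. The start of a longer GENCODE transcript (Utrn-205, position 12869365), which the authors' annotation classed as intergenic, was covered by both marks in all 8 lists. Its relative H3K27ac levels were 0.92 and 0.87 in EDL, 1.38 and 1.29 in Quad, 1.16 and 1.26 in Sol, and 1.25 and 1.23 in Dia. In the quadriceps experiments they were 0.82 and 1.49 in Sed, 1.63 and 1.48 in Ex, 1.72 and 1.42 in Wt, and 1.20 and 1.15 in mTg. EDL was lowest among the muscles, without overlap with the other 3. Percentiles were 77.9 to 94.6 for H3K27ac and 91.1 to 98.8 for H3K4me2. The accessible Utrn upstream site shown above lay inside this region. Inside Utrn, H3K27ac was called in all 8 lists around exon 11 (chr10:12735678-12738409) and in intron 1 (chr10:12807505-12819119).

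Dag1 carried one of the highest H3K27ac levels of the set. A single peak of 5.53 to 10.4 kb covered both of its RefSeq starts (chromosome 9, positions 108263958 and 108263815) in all 8 lists. Its relative levels were 1.80 and 1.68 in EDL, 2.08 and 2.24 in Quad, 1.55 and 1.36 in Sol, and 1.84 and 1.62 in Dia. Quad was higher than the other 3 muscles with no overlap, and Sol was lower than them with no overlap. Percentiles over the 8 lists were 86.8 to 98.2 for H3K27ac and 74.5 to 97.9 for H3K4me2. A second region about 8 kb upstream of the gene (chr9:108270923-108276310) was also called in all 8 H3K27ac lists, at lower percentiles of 4.76 to 59.0.

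Among the sarcoglycan genes, Sgca ranked highest in the 4 muscles and mTg, and Sgcb in Sed, Ex and Wt. The H3K27ac peak over its start (chromosome 11, position 94976327) had relative levels of 2.17 and 2.12 in EDL, 2.37 and 2.21 in Quad, 2.06 and 1.73 in Sol, and 2.21 and 2.13 in Dia, at the 98.2 to 98.9 percentiles. It was lower in the other quadriceps lists, with 1.61 and 1.22 in Sed, 0.91 and 0.44 in Ex, 1.67 and 1.76 in Wt, and 1.92 and 1.71 in mTg. Ex stood lowest, at the 75.3 percentile. Its H3K4me2 levels over the start were moderate, from the 47.9 to the 80.5 percentile in 7 lists. A narrower H3K4me2 peak about 3 kb upstream (chr11:94978297-94980136) stood at the 60.5 to 87.8 percentiles of the same 7 lists and ranked above the start peak in all of them but Wt (70.2 against 71.2).

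Sgcb, a short gene, had a single narrow H3K27ac peak of 0.88 to 1.58 kb at its start (chromosome 5, position 73647737) in 7 lists. Relative levels were 1.97 and 1.85 in EDL, 1.69 and 1.35 in Quad, 1.48 and 1.11 in Sol, and 1.58 and 1.63 in Dia, and the percentiles of the 7 lists were 90.2 to 97.1. EDL was higher than the other 3 muscles with no overlap. In mTg no H3K27ac peak was called there, although Wt held one at 2.03 and 2.26. The authors' list of regions lower in mTg held no Sgcb region, however. The 2 mTg libraries had the lowest depth of this mark (11.7 and 12.7 M tags). Their list held 36169 H3K27ac peaks, within the range of all lists (33106 to 49010). Whether depth bears on the missing peak was not tested. H3K4me2 covered the start in all 8 lists.

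Sgcd carried a peak over its start (chromosome 11, position 47379325) in all 8 lists of both marks. Relative H3K27ac levels were 1.29 and 1.54 in EDL, 1.53 and 1.49 in Quad, 0.85 and 0.94 in Sol, and 1.07 and 1.70 in Dia. Sol was lower than the other 3 muscles with no overlap. By the mean of both libraries Ex was the lowest of the 8, at 0.69 and 0.23, and mTg the highest, at 1.59 and 1.67.

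Dysf was covered at 2 starts on chromosome 6. The first (position 84008598) lay under H3K27ac in all 8 lists, with percentiles of 62.1 to 84.7, and the second (position 84019386) in 7 lists, all but mTg, at 66.6 to 87.0. Relative levels at the first were 1.14 and 1.18 in EDL, 1.11 and 0.87 in Quad, 0.56 and 0.47 in Sol, and 0.90 and 1.24 in Dia. Sol was lower than the other 3 muscles with no overlap. In the 4 muscles, Wt and mTg the strongest H3K27ac peak of Dysf lay at the other end of the gene, about 202 kb from the first start and 191 kb from the second (chr6:84207402-84214355). It was called in all 8 lists, with levels of 1.81 and 1.82 in EDL, 1.51 and 2.02 in Quad, 1.60 and 1.56 in Sol, and 1.36 and 1.80 in Dia. EDL was above Sol and Dia, while Quad overlapped each of the others. In Wt it was 1.46 and 1.87 and in mTg 2.28 and 2.16, whereas Sed had 1.36 and 0.44 and Ex 0.61 and −0.06, and there a start peak was the strongest. H3K4me2 was weaker at this region, called in 6 lists with a highest percentile of 50.8 in Quad.

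Cav3 had a peak over its start (chromosome 6, position 112459505) in all 8 lists of both marks. Relative H3K27ac levels were 1.23 and 1.40 in EDL, 1.36 and 1.44 in Quad, 1.15 and 1.02 in Sol, and 0.87 and 1.5 in Dia, with Sol below EDL and Quad. They were 0.67 and 0.65 in Sed, 0.27 and 0.03 in Ex, 1.22 and 1.63 in Wt, and 1.35 and 1.25 in mTg. H3K4me2 levels were middling, from the 42.4 to the 78.5 percentile. Both libraries of Ex were below both of Sed for H3K27ac, but not for H3K4me2, where Ex had −0.05 and −0.06 and Sed −0.13 and 0.20.

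Sntb1 carried its strongest H3K27ac far from its start, as Dysf did in most lists. Its GENCODE start (Sntb1-201, chromosome 15, position 55906949) carried strong H3K4me2 in all 8 lists (71.1 to 94.9 percentile) but weak H3K27ac in 4 lists (Quad, Sol, Sed and Ex, 24.8 to 44.9 percentile). Its strongest H3K27ac region lay about 115 kb into the gene in intron 2 (chr15:55789874-55793165) and held the accessible site with CAGCTG, a MEF2 site and AAGGTCA shown above. The relative levels there were 1.48 and 1.70 in Quad, 1.19 and 1.5 in Wt, 0.76 and 1.06 in EDL, 0.33 and −0.06 in Sed, −0.03 and −0.19 in Ex, −0.56 and 0.19 in Dia, and −0.71 and 0.13 in Sol. No peak was called there in mTg. The sedentary wild type quadriceps of the Quad, Wt and Sed groups thus gave different levels in separate experiments, which also differed in list size.

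**Figure D3:**
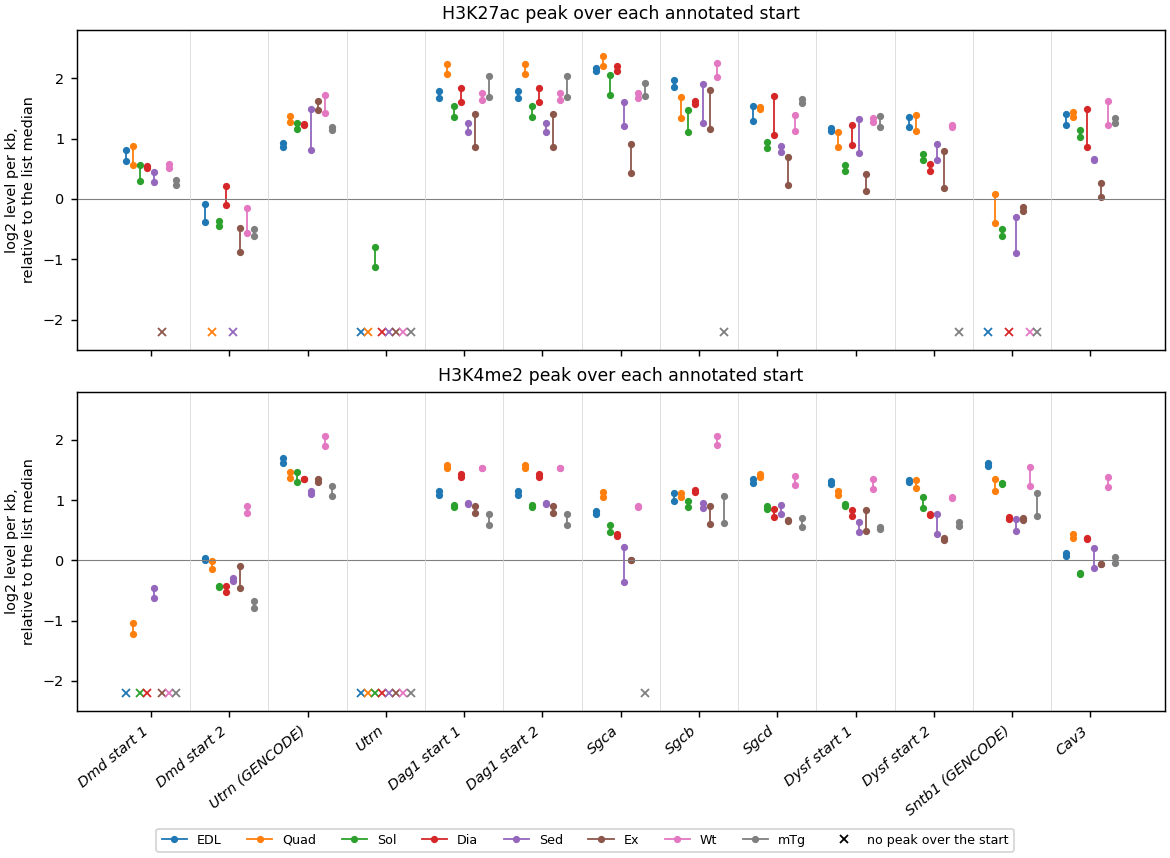
Log2 level per kb of the peak that covers each annotated start, relative to the median of its list, for H3K27ac (top) and H3K4me2 (bottom). Each pair of joined points is the 2 libraries of a group, and a cross marks a group with no peak over the start. Sgca, Sgcb and Dag1 reach the highest H3K27ac levels. The RefSeq start of Utrn has H3K27ac in Sol alone and H3K4me2 in 0 groups, and the GENCODE start of Sntb1 has strong H3K4me2 with little H3K27ac.

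Across the 4 muscles, 23 of 77 merged H3K27ac regions of the 9 genes (29.9%) were called in all of EDL, Quad, Sol and Dia, against 37.4% of all 51590 merged regions. Next, a region of one list was paired with a single region of another where each was covered to 50% or more by the other. A region without a peak in the other list was not compared. A matched region was counted as apart when the difference of its log2 levels per kb, centred on the median difference of all shared regions, passed 2-fold and the libraries, each centred on its own median over the shared regions, did not overlap. Since differences and levels are centred separately, a difference printed below can depart slightly from that of the printed levels. At H3K27ac, 2 of 30 matched member regions stood apart between Sol and Quad (3.74% of all matched regions did), 1 of 24 between Dia and Quad (4.27%), 0 of 32 between EDL and Quad (0.643%), 1 of 29 between Sol and EDL (2.88%), 0 of 20 between Sol and Dia (1.64%) and 0 of 24 between EDL and Dia (3.1%). At H3K4me2, 1 of 26 stood apart between Sol and Quad (1.89%), and 0 did between Dia and Quad (of 24, 1.58%), EDL and Quad (of 30, 0.457%), Sol and EDL (of 27, 0.626%), Sol and Dia (of 24, 0.439%) and EDL and Dia (of 25, 0.686%). With so few member regions past 2-fold, their shares cannot be set apart from those of all matched regions.

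The intron 2 region of Sntb1 was the one that stood apart in both Sol and Dia. Its centred log2 levels per kb were 0.79 and 1.03 in Quad and −1.13 and −0.28 in Sol, a difference of −1.66 (3.16-fold lower). Against Quad at 0.73 and 0.98, Dia had −1.05 and −0.33, a difference of −1.58 (2.99-fold lower). The Sol and Dia comparisons share the Quad libraries. Sedentary quadriceps of the Sed group also stood below Quad there, with relative levels of 0.33 and −0.06 against 1.48 and 1.70. In the first intron of Dag1, a region 27.1 kb from the start (chr9:108236018-108237345) was at −0.12 and −0.09 in Quad and −1.29 and −1.70 in Sol, a difference of −1.44 (2.71-fold lower). A Dag1 region at 16.9 kb (chr9:108246285-108247581) was at −0.34 and −0.49 in EDL and −1.54 and −1.51 in Sol, a difference of −1.15 (2.22-fold lower). H3K4me2 at Sgcd intron 2 (chr11:47249884-47251451) was at 0.06 and 0.10 in Quad and −1.01 and −1.35 in Sol, a difference of −1.29 (2.45-fold lower). Each of these was lower in the slow soleus or in the diaphragm than in a fast muscle, the commoner direction over all genes. Of all matched H3K27ac regions past 2-fold, 485 were lower and 243 higher in Sol than in Quad. The numbers were 504 and 300 for Dia against Quad, and 467 and 127 for Sol against EDL. At H3K4me2, 269 were lower and 188 higher in Sol than in Quad. When pairs had to cover each other to 80%, 0 member regions stood apart between Sol and Quad at either mark.

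Wheel running was the next comparison, and it asks which regions of these genes differ in quadriceps after exercise. Of the 56 merged H3K27ac regions of the 9 genes in Sed and Ex, 7 (12.5%) overlapped a region of the list lower in Ex, against 5.43% of all 42010 merged regions, and 0 overlapped a region higher in Ex (0.909%). Dmd had 4 of the 7, and Dag1, Sgcd and Sntb1 had 1 each, whereas Utrn, Sgca, Sgcb, Dysf and Cav3 had 0. In the values below, given as log2 levels of the whole region for Ex and then Sed, the authors had selected the regions for this difference. The limma test within their list therefore describes its size and error and is not independent evidence, and it called 99.7% of the 2280 listed regions. The SE was 0.215 at each of the 7 regions, a spread pooled over the list. These p-values therefore follow the size of the difference, not the spread between each region's own libraries. With 2 libraries per group, they cover only these samples.

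The 4 Dmd regions followed one another through the first intron. At the muscle start (chrX:82948044-82951748) Ex had 7.58 and 7.02 and Sed 8.17 and 7.97, a difference of −0.77 (SE 0.215, limma adjusted p = 0.000745). At 17.5 kb (chrX:82964103-82968725) Ex had 7.16 and 6.85 and Sed 8.11 and 7.52, a difference of −0.81 (adjusted p = 0.000479). At 35.1 kb (chrX:82982204-82985689) Ex had 6.13 and 5.65 and Sed 6.82 and 6.25, a difference of −0.65 (adjusted p = 0.0034). The region at 51.2 kb (chrX:82998614-83001506) had 5.84 and 6.11 in Ex and 6.95 and 6.23 in Sed, a difference of −0.62 (adjusted p = 0.00485). In all 4 regions both Ex libraries were below both Sed libraries, as in 100% of the list. The Dmd calls rested on single libraries. Without Ex replicate 2 the first 3 regions no longer passed (adjusted p = 0.115, 0.054 and 0.181). Without Ex replicate 1 the region at 51.2 kb no longer passed (adjusted p = 0.113). Without Sed replicate 1 the regions at 35.1 and 51.2 kb no longer passed (adjusted p = 0.101 and 0.233). Over the 4 ways of leaving out 1 library, the difference ranged from −1.05 to −0.49 at the start, −1.10 to −0.52 at 17.5 kb, −0.93 to −0.36 at 35.1 kb and −0.98 to −0.26 at 51.2 kb.

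The other 3 regions passed whichever library was left out. In the first intron of Dag1 (chr9:108233067-108238637, 28.0 kb from the start), Ex had 7.68 and 7.46 and Sed 8.42 and 8.60, a difference of −0.94 (adjusted p = 0.00012). In intron 3 of Sntb1 (chr15:55746550-55750224), which holds the accessible Sntb1 intron 3 site shown above, Ex had 6.50 and 6.24 and Sed 7.55 and 6.99, a difference of −0.90 (adjusted p = 0.000182). In intron 2 of Sgcd (chr11:47250635-47252598), Ex had 5.74 and 5.77 and Sed 6.46 and 6.46, a difference of −0.71 (adjusted p = 0.00163). The median difference of the 7 was −0.77, against −0.76 in the whole list, so these genes' regions were of ordinary size for it. Each of the 7 also held an H3K27ac peak in EDL and in Quad, and 1 of the 7 did in Ex. The number of H3K27ac peaks called moved in both directions between Sed and Ex. Dmd had 7 peaks over 23.9 kb in Sed and 4 over 9.0 kb in Ex, and Dag1 6 over 24.4 kb and 2 over 10.4 kb. Sgca, Sgcd, Dysf and Cav3 also had fewer in Ex, and Sgcb had 1 in each. Utrn had 8 over 20.99 kb in Sed and 13 over 23.99 kb in Ex, and Sntb1 had 4 over 10.1 kb and 5 over 5.69 kb.

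**Figure D4:**
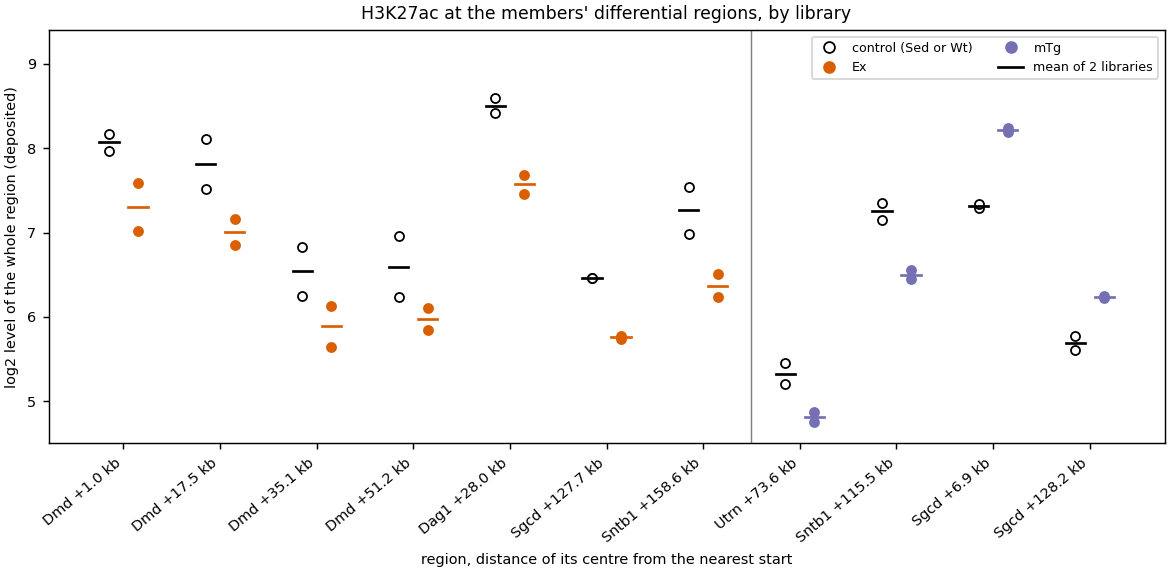
Log2 level of the whole region in each library at the 11 member regions of the authors' H3K27ac lists, case libraries beside control libraries, for lower in Ex (7 regions), higher in mTg (2) and lower in mTg (2). Case and control do not overlap at any of the 11, which the authors' selection gives at 100% of each list.

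Regions matched between the Sed and Ex lists give levels that the differential lists did not select. A match needs a called peak in both lists, however, so regions without an Ex peak are left out. Of the 7 regions lower in Ex, only 1 held an Ex peak, so most of them could not be matched. Of 16 matched member regions 0 stood over 2-fold apart at H3K27ac (3.17% of all matched regions did), and of 21 at H3K4me2 0 did (0.0925%). The differences ranged from −0.91 to 0.76 with a median of −0.22. All 5 Utrn regions were higher in Ex, by 0.29 to 0.76: around exon 11, Ex had −0.17 and 0.02 and Sed −0.65 and −1.11, and at the upstream start the difference was 0.35. Of the 11 other regions, 10 were lower in Ex, by 0.10 at Dag1 to 0.91 at Sgcd. The exception was the short-transcript start of Dmd at 0.07. At Sgca, Ex had 0.39 and −0.01 and Sed 1.17 and 0.71, a difference of −0.79. At the first start of Dysf, Ex had −0.10 and −0.31 and Sed 0.33 and 0.83, a difference of −0.83. At Cav3, the difference was −0.56. These levels come from separately normalized lists and were not tested.

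The Pgc1a transgene was compared in the same way. Of 82 merged H3K27ac regions of the 9 genes in Wt and mTg, 2 (2.44%) overlapped a region higher in mTg (3.27% of all 55872 regions) and 2 (2.44%) a region lower in mTg (1.51%). Within these selected lists limma called 100% of the 1828 higher and 100% of the 844 lower regions. Both higher regions belonged to Sgcd. In its intron 1, 6.93 kb from the start (chr11:47370334-47374403), mTg had 8.19 and 8.24 and Wt 7.30 and 7.34, a difference of 0.90 (SE 0.123, limma adjusted p = 4.84e-07). In its intron 2, 128 kb from the start (chr11:47250625-47251652), mTg had 6.23 and 6.25 and Wt 5.61 and 5.78, a difference of 0.55 (SE 0.125, adjusted p = 0.000232). The lower regions were in Sntb1 and Utrn. In intron 2 of Sntb1 (chr15:55790463-55792521), mTg had 6.55 and 6.45 and Wt 7.15 and 7.35, a difference of −0.75 (SE 0.128, adjusted p = 3.02e-05). In intron 1 of Utrn (chr10:12787276-12788952), mTg had 4.75 and 4.87 and Wt 5.45 and 5.21, a difference of −0.52 (SE 0.13, adjusted p = 0.000947). All 4 calls held whichever library was left out. The Sntb1 region is the one that was also lower in Sol and Dia than in Quad, as it was in the sedentary quadriceps of Sed. The Utrn region holds the accessible site with TGANTCA at 2 positions.

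Of 22 member regions matched between the Wt and mTg lists, 0 were over 2-fold apart at H3K27ac (4.64% of all did), and 0 of 23 were at H3K4me2 in the libraries so labelled (0.724%). The 2 regions lower in mTg held 0 mTg peaks and so could not be matched. Among the matched regions, the Sgcd intron 2 region came nearest, with 0.19 and 0.28 in mTg and −0.79 and −0.62 in Wt, a difference of 0.96 (1.95-fold). The Sgcd intron 1 region and the Sgcd start followed at 0.71 and 0.58. The gene-end region of Dysf was at 1.53 and 1.49 in mTg and 0.59 and 0.93 in Wt, a difference of 0.77. These separately normalized levels were not tested. When any 1 of the 4 H3K27ac libraries was left out, 1 region passed 2-fold.

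The intron 2 region of Sgcd was the only member region in both the list lower in Ex and the list higher in mTg. Over all genes, 66 of 2280 regions lower in Ex (2.89%) and 67 of 1828 higher in mTg (3.67%) overlapped in this way. An H3K27ac peak was called there in EDL, Quad, Dia, Sed, Wt and mTg but not in Sol or Ex, whereas an H3K4me2 peak was called in all 8 lists. The accessible Sgcd site shown above overlaps only the edge of this region in both differential lists, and its centre lies outside. The regions lower in both experiments (198 of 2280, 8.68%, and 204 of 844, 24.2%) included 0 of these genes' regions.

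**Figure D5:**
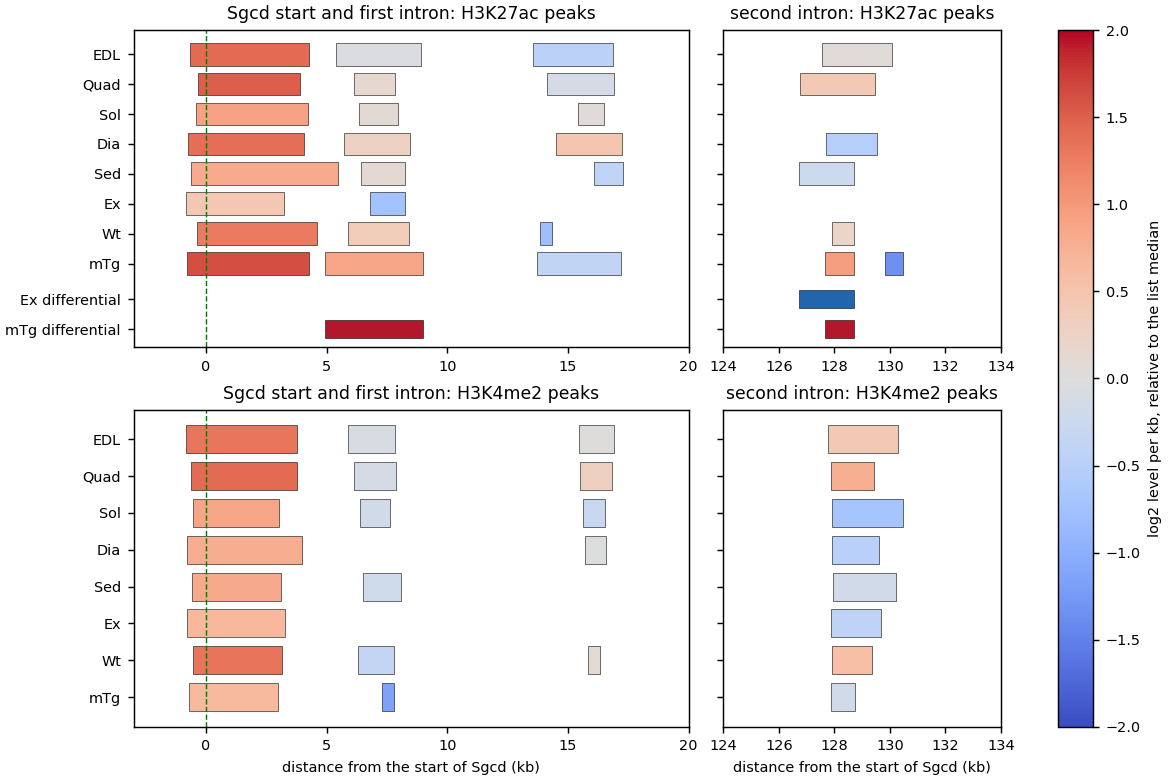
H3K27ac (top) and H3K4me2 (bottom) peaks of each group (rows) along Sgcd, by distance from its start in kb, coloured by the mean log2 level per kb relative to the list median. The intron 2 region at 128 kb has H3K4me2 in all 8 groups and H3K27ac in 6, and the bottom rows of the top panels show the differential regions (blue lower, red higher).

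Other genes of the same systems were looked up in the 4 differential lists. Of 12 further dystrophin complex genes, 9 to 10 had an H3K27ac peak per list, and 6 had 7 regions lower in Ex (18.4% of the list's 38 merged regions in Sed and Ex, beside 5.43% of all). These included Nos1 (−0.85 and −0.98), Sspn (−0.70), Dtnb (−0.91), Dtna (−0.81) and Lama2 (−0.74), which encode the neuronal nitric oxide synthase that syntrophin anchors, sarcospan, the dystrobrevins and the laminin chain that dystroglycan binds. In mTg, Sntg2 (0.56) and Sspn (0.69) had a higher region and Nos1 (−0.65) and Dtnb (−1.13) a lower one (each 3.12% of 64 merged regions, beside 3.27% and 1.51% of all). Of 14 symbols of membrane repair and caveolae genes, 3 had 5 regions lower in Ex (13.5% of 37 merged regions): Murc, a caveolar protein, at −0.99, −0.85 and −0.56, the muscle calpain gene Capn3 at −0.90 and Ano5 at −0.85. Trim72, which acts in resealing, had 1 higher region in mTg (0.52; 1.96% of 51 merged regions). Of 11 symbols for the glycosylation of dystroglycan, B3galnt2 had 1 region lower in Ex (−1.03; 4.76% of 21 merged regions). The 3 lists had 0 regions higher in Ex, a list that held 0.909% of all merged regions. Among cell type markers, the fiber gene Ttn had 3 regions lower in Ex (−0.82, −0.91 and −0.86) and Mb 1 higher in mTg (0.93). The nearest start names the gene, and some of the regions lower in Ex lay far upstream of it. These were Nos1 at −64.7 and −86.5 kb, Dtnb at −72.0 kb, Capn3 at −20.0 kb, and Ttn at −60.0 and −53.4 kb. The other Ttn region lay at 2.25 kb. The fat cell gene Plin1 had 1 region higher in mTg (0.94) and the fibroblast gene Pdgfra 1 lower (−0.70). Markers of endothelium, immune cells, satellite cells and Schwann cells had 0 regions in these lists. They had few H3K27ac peaks per group (26 to 38, 4 to 13, 2 to 8 and 0 to 2), and no share of their own regions was taken. These marker counts therefore do not measure cell content. By qPCR, the paper reports raised macrophage and vascular markers in mTg muscle and an unchanged cell composition in Ex muscle. The part of fiber or other cell content in the members' differences was not tested.

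Accessibility and factor binding were compared with the H3K27ac peaks of the same muscle. Of the 62 Quad peaks of the 9 genes, 32 (51.6%) held an ATAC-seq peak, against 57.2% of all 40949. Dysf had 8 such peaks, Utrn 7, Dag1 4, Dmd 4, Sntb1 3, Sgca 2, Sgcd 2, and Sgcb and Cav3 1 each. The highest ATAC signal was at the start of Dag1 (18.4), and the next 3 were Dysf sites, the lowest of them at 14.6. MED1, a Mediator subunit, was called in 1 library per muscle, with no replicate. It overlapped the Sgca start peak in EDL (1 of 55 member peaks, 1.12% of all) and the Sgcb start peak in Quad (1 of 62, 3.76%), and 0 of 50 in Sol (5.34%) and 0 of 37 in Dia (4.16%). NFAT, a calcium-regulated factor, was also called in 1 library per muscle, with 485 peaks in Quad and 39661 in Sol. It overlapped 0 of 62 in Quad (0.0464%) and 0 of 50 in Sol (3.02%), and so short a Quad list could hardly give another count. In Sol, 56 of 39661 NFAT peaks had one of these genes as the nearest, led by Sgcd with 24 and Dmd with 11. These lay at sites without H3K27ac peaks of theirs. For comparison, the same genes held 50 of 34173 H3K27ac peaks in Sol.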

How the data were processed

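H3K27ac and H3K4me2 ChIP-seq libraries of 8 groups (2 each) were used, with ATAC-seq, MED1 and NFAT peak lists. The authors aligned ChIP-seq reads to mm10 with Bowtie (1.2 in the submitters' processing notes, another version in the study's methods, which name Bowtie2 for ATAC-seq) and called peaks on both replicates of a group together with HOMER against inputs. The authors' DESeq2 step gave the deposited tag columns, which hold log2 values per list. They are taken here as regularized log, which shrinks differences of weak peaks. The deposited lists also give the peak caller's score and its adjusted p-value, and the authors' ATAC list gives a signal per peak. Fold and p columns that the authors gave for their own comparisons were not used, nor were lists on another build.

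Peaks were assigned by the deposited gene name. Levels per kb were log2 values minus log2 of the width, and lists were compared only after centring. Regions of the differential lists were tested with limma 3.58.1 (R 4.3.3, moderated across the list, Benjamini-Hochberg adjustment, threshold 0.05), which was tested on simulated data. Other values came from Python 3.11.15, numpy 2.4.6, pandas 2.3.3 and matplotlib 3.10.9. No counts were given, so no count model was run, and depth is the tag total of each library. All 9 genes were named, each with its start peaks, its highest peak per muscle, every differential region and every region over 2-fold apart, and other genes only where they had a differential region. The members and lists were chosen with earlier results of these data known. Alternatives were a stricter peak caller p-value (0.001), 4-fold enrichment, reciprocal overlap of 80%, whole-region levels, library centring, quantile normalization, a replicate block and leaving out each library. The values of 1 listed gene of the complex are not reported here.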

Additional observations from a re-analysis of the deposited data

Results flagged for a closer look

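The intron 2 region of Sgcd differed in direction between the exercise and the transgene experiments. H3K27ac was lower in both Ex libraries than in both Sed libraries (difference −0.71 on the log2 scale) and higher in both mTg libraries than in both Wt libraries (difference 0.55). The difference between the experiments was not tested, because each list was normalized on its own, and the authors had selected both regions for their own contrast.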

How the results depend on the processing

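Peak numbers of the 9 genes depended on the peak caller's threshold. At an adjusted p under 0.001, H3K27ac peaks numbered 23 in Dia, 34 in EDL, 17 in Ex, 35 in Quad, 27 in Sed, 25 in Sol, 23 in Wt and 16 in mTg, and H3K4me2 peaks 21, 31, 17, 33, 16, 21, 20 and 9 in the same order. Of 40 merged H3K27ac regions, 17 (42.5%) were then called in all 4 muscles, against 49.04% of all 28837. With whole-region levels in place of levels per kb, the H3K27ac regions over 2-fold apart numbered 4 (Sol against Quad), 5 (Dia against Quad), 1 (EDL against Quad), 3 (Ex against Sed) and 4 (mTg against Wt), and the H3K4me2 regions 2 (Dia against Quad) and 1 each for EDL against Quad, Sol against EDL, Sol against Dia, EDL against Dia and mTg against Wt. At a reciprocal overlap of 80%, they numbered 0 (Sol against Quad, both marks) and 2 (Dia against Quad, H3K27ac). Leaving out 1 library gave, at H3K27ac, 2 to 3 for Sol against Quad, 1 to 3 for Dia against Quad, 0 to 1 for Sol against Dia and for EDL against Dia, 0 to 2 for Ex against Sed and 1 to 1 for mTg against Wt. At H3K4me2 it gave 0 to 3 for Dia against Quad and 0 to 1 for Sol against EDL, Sol against Dia and mTg against Wt. The 7 regions lower in Ex ranged from 4 to 7, and the 2 and 2 regions of mTg stayed at 2.

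Centring each library on its median within a differential list, or quantile normalization of that list, left 0 member regions past the threshold in the list lower in Ex, the list higher in mTg and the list lower in mTg. Both settings subtract the common shift of regions that were all selected in one direction. Centring turned the sign at Sgcd (0.0767) and at 3 Dmd regions (0.0148, 0.134 and 0.163) of the Ex list, and at Sgcd intron 2 (−0.26) and Utrn (0.15) of the mTg lists. Quantile normalization turned it at the 4 Dmd regions (0.051, 0.0528, 0.00688 and 0.108), at both Sgcd regions of mTg (−0.11 and −0.24), at Sntb1 (0.11) and at Utrn (0.0403).

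Replicate numbers did not pair the samples (correlation of deviations 0.144, 0.106, −0.0386 and −0.242 in the lists higher and lower in Ex and higher and lower in mTg, with 2 pairs each). With the replicate block, limma called 2280 in place of 2274 regions lower in Ex and the same 1828 and 844 in number for mTg, and 7, 2 and 2 member regions. With the numbers crossed, chosen after seeing the data, 2 and 2 member regions of mTg passed. Crossing the Ex and Sed numbers gave 2200 of the 2280 regions lower in Ex, and member regions were not counted there. Depth and 2 libraries per group limit what could be called at weak regions.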
